A study of Homo sapiens with 2 samples.

Results

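The Notch pathway was followed through 10 genes in REH cells, a human line of B-cell precursor leukaemia (B-ALL, labelled REH-R), with and without induced PAX5. They are the receptors NOTCH1, NOTCH2 and NOTCH3, the ligand JAG1, the fringe glycosyltransferases LFNG and MFNG, the E3 ligase DTX1, the DNA-binding factor RBPJ, its coactivator MAML2 and the target gene HES1. They were chosen by name, with earlier results of these data known. The rows were found by Entrez number: all 10 had a row among the 25702 gene features counted. In the PAX5 group doxycycline switched on a PAX5-IRES-GFP cassette, in which a ribosome entry site links PAX5 to green fluorescent protein, and in the control group an IRES-GFP cassette. The drug (1 µg/mL, 3 days), GFP and sorting of GFP-positive cells were shared by both groups. Each group was 1 library of total RNA, so no difference has a replicate check and none was tested. Whether the cells of a group came from 1 clone is not given in the sources used here.

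Notch receptors are single-pass membrane proteins that are activated by Jagged and Delta-like ligands on a neighbouring cell. Fringe enzymes add sugars to the receptor and tune which ligands it answers to. Ligand binding lets ADAM proteases and gamma-secretase release the intracellular domain, which joins RBPJ and a Mastermind coactivator on target genes such as HES1. Strong Notch signals direct lymphoid progenitors to the T lineage, whereas PAX5 directs them to the B lineage and is known to repress NOTCH1 in mouse B-cell precursors. The comparison asked whether transcripts of this pathway differ when PAX5 is induced.

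The libraries held 11944765 counts (PAX5) and 10997864 counts (control). The label of the PAX5 library matched the PAX5 row, at 8319 against 2660 counts (log2 ratio 1.54, 1.47 to 1.60), although the control cells held PAX5 transcript too. All 12 B-precursor markers looked for had at least 10 counts, and they summed to 9735 and 9471 CPM (scaled counts per 1000000) in the PAX5 and control libraries. None of 10 T-cell markers reached 10 counts: 7 of them, such as CD3D, CD3G and CD2, were at 0 in both libraries, and the list summed to 0.252 and 0.362 CPM. Stromal and endothelial markers summed to 51.9 and 61.0 CPM, mostly through PDGFRB and COL1A1, with COL3A1 and CDH5 at 0. Myeloid markers summed to 68.9 and 135 CPM, mostly through MPO, with FCGR3A, S100A8 and S100A9 at 0. Erythroid and megakaryocytic markers summed to 1.85 and 2.72 CPM, with HBA1, HBB and PF4 at 0. The part of these other markers in the Notch results was not tested.

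RBPJ binds DNA at a core written GTGGGAA, so the 250 bases before each annotated start were searched for that string on both strands in RefSeq promoters of GRCh38.p14. The table gave windows for 8 of the 10 genes, all but DTX1 and MFNG, and 13 windows in all because LFNG and RBPJ had several starts. HES1 and RBPJ held the string, 2 of 8 genes, beside 6.69% of all 27305 genes with a window. The 3 windows below belong to HES1, the classical target, to RBPJ itself at the start with matches, and to LFNG, the gene with the largest ratio among the 10, at its most upstream start. Capitals mark the string on either strand, positions count back from the start, and the last base shown lies just before the start.
HES1 (chr3:194135898-194136147, + strand): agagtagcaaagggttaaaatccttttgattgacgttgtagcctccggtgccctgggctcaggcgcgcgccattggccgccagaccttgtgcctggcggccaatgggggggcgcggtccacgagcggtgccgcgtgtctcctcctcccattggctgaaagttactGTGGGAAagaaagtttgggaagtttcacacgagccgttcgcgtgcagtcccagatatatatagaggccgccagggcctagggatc
RBPJ (chr4:26319496-26319745, + strand): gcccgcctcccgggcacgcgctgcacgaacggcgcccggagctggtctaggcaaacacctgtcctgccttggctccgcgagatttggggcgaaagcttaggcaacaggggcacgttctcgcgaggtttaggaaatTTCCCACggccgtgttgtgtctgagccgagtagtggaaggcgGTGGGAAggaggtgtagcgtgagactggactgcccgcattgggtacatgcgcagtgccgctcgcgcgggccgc
LFNG (chr7:2512279-2512528, + strand): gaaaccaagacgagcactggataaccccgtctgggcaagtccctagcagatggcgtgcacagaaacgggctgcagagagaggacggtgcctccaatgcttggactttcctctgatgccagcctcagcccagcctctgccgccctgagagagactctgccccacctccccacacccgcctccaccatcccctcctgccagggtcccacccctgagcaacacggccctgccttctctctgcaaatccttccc
The match of HES1 began at position -85. Those of RBPJ began at -115 and -73, and 0.174% of all 35116 windows held 2 or more matches. Neither LFNG window held the string, nor did those of NOTCH1, NOTCH2, NOTCH3, JAG1 and MAML2. These matches describe the letters and do not show binding.

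Of the 10 genes, LFNG and DTX1 were higher in the PAX5 library, MAML2 was higher by a smaller and less certain amount, and MFNG was slightly lower. The receptors NOTCH1 and NOTCH2 were nearly level, and NOTCH3 and HES1 were almost without counts in both libraries. In bulk RNA, a smaller share of cells with a transcript and less transcript per cell cannot be told apart. NOTCH3 and HES1 had fewer than 10 counts over both libraries, which left 8 genes with a ratio. Ratios are given as PAX5 over control with an exact 95% interval that covers counting error only. No gene of the 10 had an interval lying wholly at or beyond 2-fold, where 1.38% of 13532 features did. LFNG and DTX1 lay wholly beyond 1.5-fold on the higher side, as did 2.61% of features. By the ratio itself MAML2 was also at least 1.5-fold higher, giving 3 of 8 genes beside 7.76% of features. Intervals lay above 0 for 6 of the 8 genes and below 0 for 1, beside 18.4% and 17.1% of all features. Such intervals are more common where counts are high: 53.7% of the 5339 features with at least 1000 counts had an interval off 0 on either side, and 6 of the 8 genes are among those features. The median log2 ratio of the 8 genes was 0.31 and that of all 13532 features was -0.01. Because the 10 genes were chosen with earlier results of these data known, these shares and medians cannot show whether the pathway stands out.

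**Figure D1:**
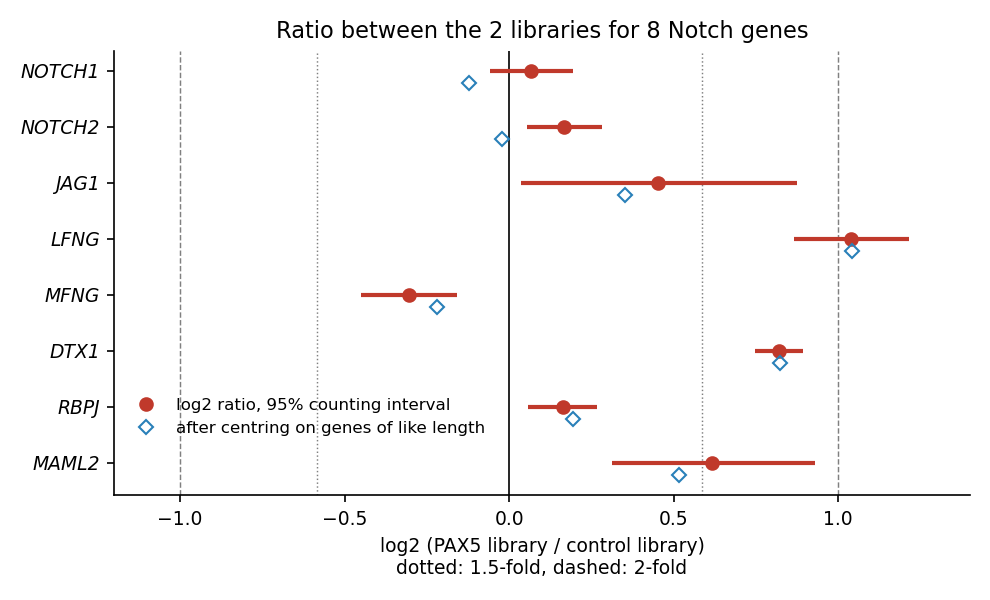
Log2 ratio of the PAX5 library over the control library for the 8 Notch genes with at least 10 counts (points, with lines for the 95% counting interval, 1 library per group) and the same ratio after centring on genes of like length (diamonds). LFNG at 1.04 and DTX1 at 0.82 stand to the right of the dotted 1.5-fold line with their intervals, MFNG at -0.30 is on the other side of 0, and the diamonds of NOTCH1 and NOTCH2 lie below 0.

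The receptors NOTCH1 and NOTCH2 differed little between the libraries. NOTCH1, the main Notch receptor of T-cell progenitors, had 1076 counts with induced PAX5 and 952 in the control, which is 90.4 against 86.3 CPM. Its log2 ratio was 0.07 with an interval across 0 (-0.06 to 0.20), so at 2028 summed counts a NOTCH1 difference above 1.14-fold upward or 1.04-fold downward lay outside the counting error. NOTCH2, the receptor used by marginal zone B cells, had 1396 against 1152 counts, 117 against 104 CPM, and a log2 ratio of 0.17 (0.05 to 0.28). Both are long transcripts (9295 and 11425 bases), and ratios moved with length across all genes: when features with at least 100 counts were put in 10 equal groups by length, the median log2 ratio was -0.20 in the shortest group and 0.19 in the longest, which holds both receptors. Relative to genes of like length NOTCH1 was at -0.12 (-0.25 to 0.004) and NOTCH2 at -0.023 (-0.14 to 0.09), so NOTCH2 changed sign and its interval then held 0. The count ratio of NOTCH2 to NOTCH1 was 1.30 with induced PAX5 and 1.21 in the control, and the quotient of these ratios, which needs no library scaling, was 1.07 (0.952 to 1.21). Partial copies of NOTCH2 could share its reads: the row of NOTCH2NLA had 137 against 141 counts, and 3 further copies (NOTCH2NLB, NOTCH2NLC and NOTCH2NLR) were not analysed here.

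NOTCH3, a receptor that is itself a Notch target in T-cell leukaemia, had 2 counts with induced PAX5 and 1 in the control. NOTCH4, the remaining receptor, had 7 against 8 counts. No fold is given for NOTCH3 because both values lie under the floor of 3 counts, and the log2 ratio of NOTCH4 was -0.30 with a wide interval across 0 (-2.00 to 1.36).

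The fringe genes differed from each other. LFNG, which extends O-fucose on Notch with N-acetylglucosamine, had 860 counts with induced PAX5 and 388 in the control (72.3 against 35.2 CPM). That is 2.06-fold (1.82 to 2.32), a log2 ratio of 1.04. Among the 5339 features with at least 1000 counts, 29 (0.543%) had a ratio as high as that of LFNG. MFNG, an enzyme of the same activity, had 728 against 833 counts and was 1.23-fold lower in the PAX5 library (1.12 to 1.36), a log2 ratio of -0.30 (-0.45 to -0.16). Genes of the length of MFNG had a median of -0.08, and relative to them it was at -0.22. RFNG, the remaining fringe gene, stood at 282 against 246 counts, at a log2 ratio of 0.09 (-0.16 to 0.34). LFNG had fewer counts than MFNG in the control library and more in the PAX5 library: the count ratio went from 0.466 to 1.18, a quotient of 2.54 (2.16 to 2.97). Per length the order stayed the same, with MFNG above LFNG in both libraries, at 35.3 against 11.1 RPKM (CPM per 1000 bases) in the control library and 28.6 against 22.9 RPKM in the PAX5 library. The share of LFNG in the summed RPKM of the 3 fringe genes was 19.0% in the control library and 35.5% in the PAX5 library, while that sum was 58.7 and 64.5 RPKM.

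Other enzymes that glycosylate the Notch ectodomain lay near 0. Of 8 glycosyltransferases with at least 10 counts, LFNG alone lay beyond 1.5-fold by its interval, MFNG alone had an interval below 0, and 6 had intervals across 0. Among all features 2.61% lay beyond 1.5-fold on the higher side, 18.4% had intervals above 0 and 17.1% below. POFUT1, which adds the fucose that fringe enzymes extend, stood at 927 against 877 counts, at a log2 ratio of -0.03 (-0.16 to 0.11). POGLUT1, which adds O-glucose, was at -0.12 (-0.40 to 0.17). The median of the list was 0.01, and GXYLT2 had 2 counts in each library.

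DTX1, the E3 ligase Deltex-1 that binds the Notch intracellular domain, was the most abundant of the 10 genes. It had 4376 counts with induced PAX5 and 2300 in the control, which is 368 against 208 CPM and 1.76-fold (1.68 to 1.86). Its log2 ratio of 0.82 (0.75 to 0.89) had the narrowest interval of the 8 genes, and 59 of the 5339 features with at least 1000 counts (1.11%) had one as high. DTX1 and LFNG are of like length (3288 and 3156 bases), in a length group whose median was -0.003, and centring on it left them at 0.82 and 1.04.

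The other Deltex genes lay near 0 or below it. DTX4, at 862 against 1070 counts, had a log2 ratio of -0.42 (-0.55 to -0.29). DTX3L had 1834 against 1644 counts and a ratio of 0.05 (-0.05 to 0.15), and DTX2 had 121 against 123 counts and -0.13 (-0.51 to 0.24). DTX3 was at 0 in both, where the floor of 3 counts is 0.252 CPM with PAX5 and 0.272 CPM without. The quotient of the DTX1 to DTX4 count ratios was 2.36 (2.13 to 2.62), and that of DTX1 to DTX3L was 1.71 (1.57 to 1.86). DTX1 made up 57.7% of the family's RPKM in the control library and 72.3% in the PAX5 library.

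**Figure D2:**
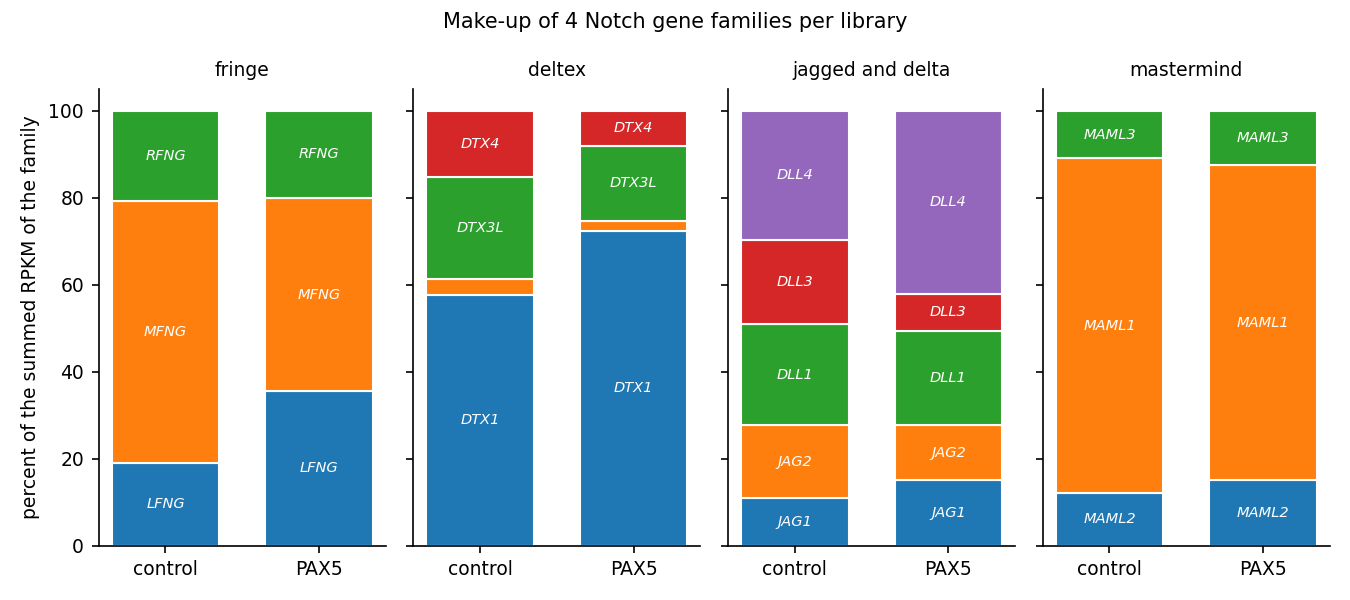
Share of each gene in the summed RPKM of its family, in percent, for the fringe, Deltex, Jagged and Delta-like, and Mastermind genes (1 bar per library, no replicates, DTX3 at 0 counts left out and DTX2 the unlabelled thin band). LFNG goes from 19.0% to 35.5% and DTX1 from 57.7% to 72.3% between the control and PAX5 bars, while MAML1 keeps the largest share of the Mastermind genes in both.

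Of the other regulators of receptor trafficking and turnover, none lay beyond 1.5-fold by its interval, beside 2.61% of all features on the higher side. With DTX1 included, the list had 10 genes with at least 10 counts, of which 6 had intervals above 0 and 1 below (18.4% and 17.1% of all features), and a median of 0.17. Relative to genes of like length the intervals of ITCH and AAK1 came to hold 0, which left 4 above and 1 below, beside 16.7% and 13.7% of all features centred likewise, and the median was 0.05. NRARP, a Notch target and feedback inhibitor, stood at 196 against 128 counts and 0.51 on the log2 scale (0.18 to 0.84). NUMB, which promotes the removal of Notch from the membrane, had 1194 against 860 counts and a ratio of 0.36 (0.24 to 0.49).

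JAG1 was the Notch ligand among the 10 genes and was weakly counted. It had 121 counts with induced PAX5 and 82 in the control (10.2 against 7.43 CPM), a log2 ratio of 0.45 (0.04 to 0.87), and the interval relative to genes of like length held 0 (-0.06 to 0.77). The ligands lay on both sides of 0: of 6 with at least 10 counts, 2 intervals lay above 0 and 2 below. All features gave 18.4% and 17.1%, and the median of the ligands was -0.27. DLL4 stood at 193 against 128 counts, at a log2 ratio of 0.48 (0.15 to 0.82), whereas JAG2 had 86 against 108 counts and -0.44 (-0.86 to -0.02). DLL3, a divergent ligand that does not activate Notch on neighbouring cells, had 27 against 58 counts, 2.32-fold lower in the PAX5 library with an interval of 1.44 to 3.80. DLK1, a non-canonical ligand of the imprinted locus that also holds DIO3, had 6 counts with induced PAX5 and 0 in the control, and DNER had 4 against 1.

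Enzymes that activate ligands and cleave receptors lay on both sides of 0, and their counts ranged widely. MIB1, the E3 ligase that drives ligand endocytosis, stood at 13026 against 9738 counts, at a log2 ratio of 0.31 (0.27 to 0.35), or 0.12 relative to genes of like length. The ligases NEURL1B and NEURL1 were at -0.15 (-0.24 to -0.05) and, with 14 against 19 counts, at -0.55 (-1.66 to 0.52). None of the 5 ligand E3 ligases and none of the 8 counted cleavage genes lay beyond 1.5-fold by its interval. Among all features 2.61% did on the higher side. Intervals lay above 0 for 1 ligase and 3 cleavage genes and below 0 for 1 and 2. All features gave 18.4% above and 17.1% below. The medians of the ligases and the cleavage genes were -0.04 and -0.01. The sheddase ADAM17 was at 0.32 (0.19 to 0.45). The gamma-secretase subunits APH1A and PSENEN lay on the other side, at -0.17 (-0.26 to -0.08) and -0.25 (-0.46 to -0.03). PSENEN is short, and relative to genes of like length its interval held 0 (-0.26 to 0.17). PSEN2, a catalytic subunit, had 0 counts with induced PAX5 and 7 in the control, under the minimum for a ratio.

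RBPJ, the factor that carries the Notch complex to DNA, had 1610 counts with induced PAX5 and 1334 in the control (135 against 121 CPM). Its log2 ratio of 0.16 (0.06 to 0.27) was small, and relative to genes of like length it was 0.19 (0.09 to 0.30). MAML2, a Mastermind coactivator, had 235 against 142 counts (19.7 against 12.9 CPM), 1.53-fold (1.24 to 1.90), with a log2 ratio of 0.62 (0.31 to 0.93), or 0.52 (0.21 to 0.83) relative to genes of like length. Its relatives had smaller ratios with intervals above 0: MAML3 had 256 against 168 counts and 0.50 (0.21 to 0.79), and MAML1 had 1199 against 951 counts and 0.23 (0.10 to 0.35). Relative to genes of like length their intervals lay only just above 0, with MAML3 at 0.31 (0.02 to 0.60) and MAML1 at 0.13 (0.001 to 0.25). The quotient of the MAML2 to MAML1 count ratios was 1.31 (1.04 to 1.66), and that of MAML2 to MAML3 was 1.09 (0.808 to 1.46), which holds 1.

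The list of RBPJ and the coactivators of the Notch complex, with MAML2, held 9 genes with at least 10 counts, 5 of them with at least 1000. Of the 9, 7 intervals lay above 0 and none below, both before and after length centring. All features gave 18.4% and 17.1% before centring and 16.7% and 13.7% after it. Among features with at least 1000 counts, 53.7% were off 0 on either side before centring. None of the 9 lay beyond 1.5-fold by its interval, beside 2.61% of all features on the higher side. Their median was 0.23 (0.19 relative to genes of like length). The acetyltransferases EP300 (log2 ratio 0.38) and CREBBP (0.29) are long genes, and relative to genes of like length they were at 0.19 and 0.10. The corepressors gave 14 counted genes, of which 11 reached 1000 counts. Intervals lay above 0 for 9 of the 14 and below for 2, to be read against the same shares before centring. Relative to genes of like length 8 lay above and 3 below, beside 16.7% and 13.7% of all features centred likewise. The median of the corepressors was 0.26 (0.21 relative to genes of like length). TLE3, a Groucho corepressor recruited by HES proteins, had 306 against 95 counts, 2.99-fold (2.37 to 3.80), and was the only gene of these pathway lists beyond 2-fold by its interval, beside 1.38% of all features. CTBP2, a C-terminal binding protein, had 1529 against 798 counts, 1.78-fold (1.63 to 1.94). ZRANB1, whose annotation overlaps that of CTBP2, had 1163 against 1015 counts, and without a known strand setting their reads may not be separable. SPEN, a corepressor that binds RBPJ complexes, was at 0.44 (0.35 to 0.53), or 0.25 relative to genes of like length. CIR1, a further corepressor, was not analysed here.

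**Figure D3:**
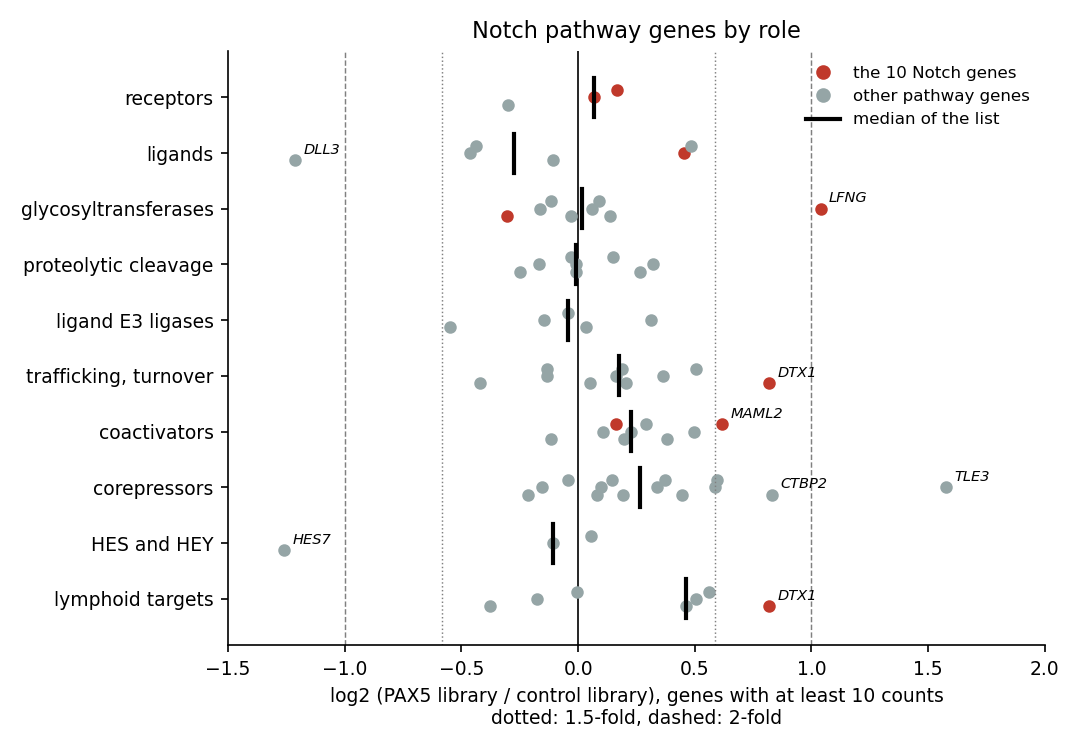
Log2 ratio of the PAX5 library over the control library for Notch pathway genes with at least 10 counts, grouped by role (1 point per gene in each list, red for the 10 Notch genes, black bar for the median of the list, genes at or beyond 0.6 named). DTX1 and NRARP are drawn in each list that holds them. Most points lie within the dotted 1.5-fold lines, TLE3 at 1.58 and LFNG at 1.04 lie farthest right, and HES7 at -1.26 and DLL3 at -1.21 lie farthest left.

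HES1, a repressor that reports Notch activity in many tissues, had 2 counts with induced PAX5 and 0 in the control, where 0 allows up to 0.272 CPM. Both values lie under the floor of 3 counts, so no fold is given, and whether HES1 differed was not detectable at this depth. The rest of its family was also little counted. HES2, HES4, HES5 and HEY1 were at 0 in both libraries and HEY2 had 6 against 2 counts, so 6 of the 9 HES and HEY genes had fewer than 10 counts. Of the 3 others, HES6 had 87 counts in each library, HEYL had 84 against 75, and HES7 had 9 against 20 with an interval just below 0 (log2 ratio -1.26, -2.58 to -0.06) that held 0 relative to genes of like length (-2.45 to 0.07). The RBPJ string of the HES1 window shown above was present in 5 of the 8 HES and HEY genes with a window that were searched, whatever their counts. Among all 27305 genes with a window 6.69% held it.

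Genes that Notch is known to activate in lymphoid cells went in different directions. Of 13 such genes, 7 had at least 10 counts, of which 3 had intervals above 0 (DTX1, NRARP and IGF1R) and 2 below (MYC and IL7R), beside 18.4% and 17.1% of all features. The median was 0.46, or 0.27 relative to genes of like length. IGF1R, a growth factor receptor, stood at 1365 against 919 counts, at a log2 ratio of 0.46 (0.34 to 0.58), or 0.27 relative to genes of like length. MYC, a growth regulator, had 2503 against 3019 counts and a ratio of -0.38 (-0.46 to -0.30). PTCRA, the pre-T-cell receptor alpha chain, and CR2, a complement receptor on B cells, were at 0 in both libraries. Over all lists together, 63 pathway genes outside the 10 had at least 10 counts. Of these, 25 (39.7%) had intervals above 0 and 11 (17.5%) below, where all features gave 18.4% and 17.1%, and 32 of the 63 had at least 1000 counts, where 53.7% of features were off 0. Relative to genes of like length 21 lay above 0 and 10 below, beside 16.7% and 13.7% of all features centred likewise. Beyond 1.5-fold lay 2 (TLE3 and CTBP2), both higher, beside 2.61% of features, and the median was 0.06, or 0.02 relative to genes of like length.

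Per length the 10 genes kept nearly the same order in both libraries. DTX1 stood highest at 112 RPKM in the PAX5 library (108.5 to 115) and 63.4 RPKM in the control library (60.8 to 66.0). RBPJ followed at 48.4 and 43.3 RPKM, then MFNG and LFNG with the values above. NOTCH2 and NOTCH1 were not separable by counting error, at 10.3 (9.73 to 10.8) and 9.73 RPKM (9.15 to 10.3) with induced PAX5 and at 9.14 and 9.28 RPKM in the control. MAML2 (3.64 and 2.37 RPKM) and JAG1 (1.70 and 1.24 RPKM) came next. HES1 and NOTCH3 were lowest, and their intervals overlapped each other in both libraries. DTX1 exceeded 95.7% of the 13532 features by level per length with induced PAX5 and 90.6% in the control, while LFNG exceeded 72.6% and 54.5% and NOTCH1 50.6% and 49.8%.

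**Figure D4:**
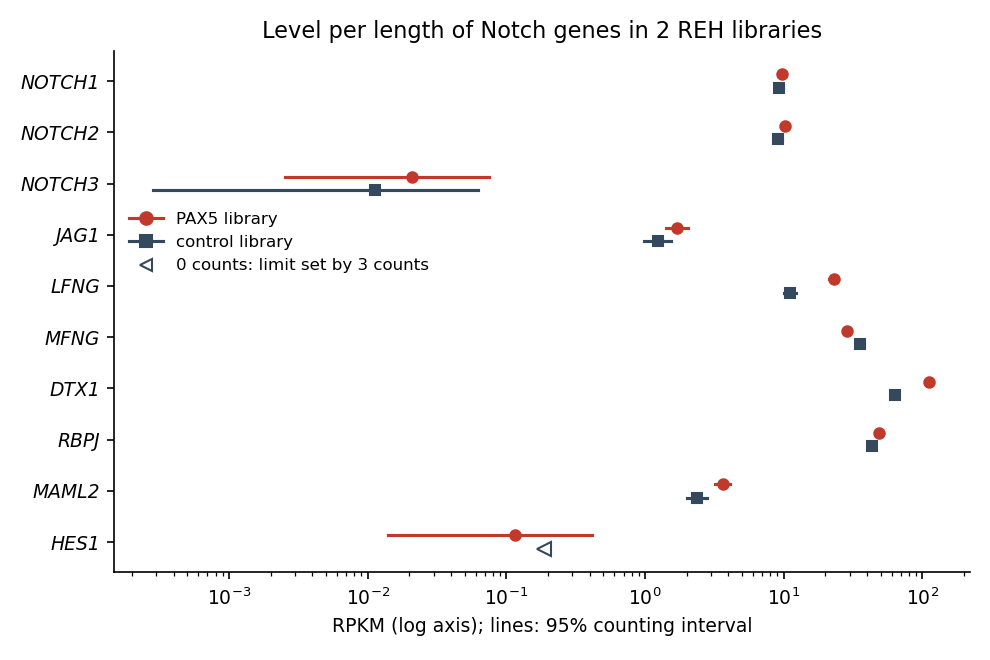
Level per length (RPKM, log axis) of the 10 Notch genes in the PAX5 library (circles) and the control library (squares), with lines for the 95% counting interval and an open triangle at the limit set by 3 counts where a library had 0 counts. DTX1 at 112 and 63.4 RPKM and LFNG at 22.9 and 11.1 RPKM are well separated between libraries, and NOTCH1 and NOTCH2 nearly coincide. NOTCH3 and HES1 lie lowest, at 0.0208 and 0.116 RPKM in the PAX5 library.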

How the data were processed

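Groups came from the genotype labels, with 1 library each. Raw read counts per gene, with Entrez number and length, were deposited. Per the submitters' processing notes, the authors used featureCounts and the hg19 (GRCh37) build. The aligner, versions and strand setting were not given in the sources used here. All 51404 counts were equal in the series table and the single files.

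RefSeq (GRCh38.p14) gave symbols for 23696 of 25702 features. Scaling was TMM over all features (edgeR 4.0.16, R 4.3.3). Without replicates nothing was tested: exact Clopper-Pearson 95% intervals of the ratio (scipy 1.17.1), given a gene's summed counts, were set against fixed sizes for features with 10 or more counts. RPKM intervals are exact Poisson. Intervals and the floor of 3 counts cover counting error only, as PCR copies are not separate molecules. An interval spans 0.41 on either side of a log2 ratio at 200 counts and 0.13 at 2000. Length centring subtracts the median log2 ratio of a gene's length group (10 groups). Quotients within families are conditional odds ratios, with unadjusted intervals (23 pairs, 14 off 1).

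Counts of this comparison were simulated with counting error alone, so false calls from variation between cultures were not covered. Of 200 genes changed 2-fold among 13523, 70.5% passed the 1.5-fold bound (1 false call). Only 2.5% of them passed the 2-fold bound, so that bound misses most changes of 2-fold. At 4-fold among 13537, 85% passed the 2-fold bound (1 false call).

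The 10 genes and all lists were chosen with earlier results of these data known. Named are the 10 genes, PAX5, and per list the genes past the 1.5-fold bound, then those with the bound farthest from 0, up to 4; family members and genes with intervals across 0 were added after their values were seen. Alternatives were scaling by total counts, DESeq2 1.42.0 or upper quartile, other count minimums, sizes and intervals, and centring. A few genes of the lists are not reported here by name.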

Additional observations from a re-analysis of the deposited data

How the results depend on the processing

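Other scalings shifted every log2 ratio by at most 0.02. Of 56 values of single genes under 7 alternatives, 52 stayed within their counting interval. Most could not leave it: the single files held the same counts, and the scalings shifted ratios by less than any interval spans. Only the centrings could move a value out, and the values that left were those of NOTCH1 and NOTCH2. NOTCH2 changed sign from 0.17 to -0.023 when centred on features of like length and to -0.059 when centred on length and GC content together, an alternative added after seeing the data. NOTCH1 moved from 0.07 to -0.12 and -0.10 under the same centrings. LFNG and DTX1 lay beyond the 1.5-fold bound under all scalings, centrings and count minimums run. By the ratio itself 1 gene (LFNG) was beyond 2-fold, and no gene was by its interval under the other alternatives run. Intervals off 0 numbered 7, and 5 after either centring and 6 with 99% intervals. The median of 0.31 was 0.54 with no minimum count, which adds NOTCH3 and HES1, and lay between 0.26 and 0.33 otherwise. The mean in place of the median was 0.38. No paired analysis was possible because each group has 1 library, and for the same reason no library could be left out. Depth limits JAG1, MAML2, NOTCH3 and HES1 most.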

Other observations

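The Jagged and Delta-like genes differed in make-up between the libraries more than in sum. Their 5 genes summed to 11.3 RPKM with PAX5 and 11.4 RPKM without. DLL4, a ligand known from endothelium and thymus, made up 42.1% of that sum with PAX5 and 29.8% without, and DLL3 made up 8.46% and 19.4%. The count ratio of DLL3 to DLL4 was 0.140 with PAX5 and 0.453 without, a quotient of 0.310 (0.178 to 0.527). The quotient of JAG1 to DLL4 was 0.979 (0.673 to 1.42), which holds 1, and that of JAG1 to JAG2 was 1.85 (1.22 to 2.82). These intervals were not adjusted for the 23 pairs compared, and variation between cultures was not measured.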
